A study of Mus musculus with 6 samples.

Results

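The 10 genes described here encode the vasoactive peptides adrenomedullin (Adm), apelin (Apln) and endothelin 1 (Edn1) with their receptors. They were picked by symbol, with earlier results of these data known but with no measured value in the rule, and are 10 of the 54532 genes in the deposited count table. The receptors are Calcrl with its partners Ramp1, Ramp2 and Ramp3, the apelin receptor Aplnr, and the endothelin receptors Ednra and Ednrb. All 10 had enough reads to be tested. Transcripts were measured by bulk RNA sequencing of whole mouse adrenal glands, in 3 samples labelled VEGF/LysM and 3 labelled WT, to ask what VEGF-A made by macrophages does for the gland. LysM is another name of Lyz2, a lysozyme gene of myeloid cells, but the labels do not describe the allele, the strain, the age of the mice or the cells in which a gene was altered. Nor do they tell if each replicate was a separate animal, so p values reflect the scatter of these samples alone, and that scatter may be technical.

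Adrenomedullin relaxes vessels and supports their barrier, acting on Calcrl, a G protein-coupled receptor that reaches the cell surface and gains its ligand preference through a Ramp protein. With Ramp2 or Ramp3 the pair binds adrenomedullin, and with Ramp1 it binds the sensory nerve peptide CGRP. Apelin, made by sprouting endothelial cells, acts on Aplnr of endothelium and heart muscle. The endothelins constrict vessels through Ednra of smooth muscle, while Ednrb of endothelium releases nitric oxide and clears the peptide. Ednra prefers endothelin 1 to endothelin 3, and Ednrb binds both alike. In the adrenal gland these peptides are known as local signals to vessels, cortex and medulla, and adrenomedullin was first isolated from a tumour of the human adrenal medulla.

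The coding stretches of the mature endothelins are shown because the gland held far more transcript of Edn3, the gene of endothelin 3, than of Edn1. Edn3 is not among the 10 genes but shares their receptors. Each stretch has 21 codons and is printed 5′ to 3′ on the coding strand, from the GENCODE transcripts, with the 4 cysteine codons of the peptide's disulfide bridges in capitals.
Edn1: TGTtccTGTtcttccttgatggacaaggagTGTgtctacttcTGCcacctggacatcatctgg
Edn3: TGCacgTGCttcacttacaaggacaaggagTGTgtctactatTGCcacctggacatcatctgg
The Edn1 stretch comes from a gene on chromosome 13 and the Edn3 stretch from a gene on chromosome 2. They are identical at 50 of 63 bases and, translated, at 15 of 21 residues, so 6 residues differ.

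VEGF/LysM and WT glands were not separated by any of the 10 genes. edgeR's quasi-likelihood test called 0 of the 10 at an adjusted p of 0.05, against 0 of all 16300 genes tested (0%). At an unadjusted p under 0.05 it found 0 of the 10, against 459 genes or 2.82% of all. Other tools also called 0 genes, with 542 (DESeq2), 224 (limma-voom) and 300 (limma-voom with sample weights) at an unadjusted p under 0.05. The VEGF/LysM and WT values overlapped for each of the 10, while 970 genes (5.95% of those tested) had groups that did not overlap. Log2 fold changes, VEGF/LysM minus WT, were above 0 for 7 genes and below 0 for 3, with a median of 0.061 against 0.0013 over all genes tested. The adjusted p of edgeR's test was 0.999 for each of the 10.

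Libraries held 16476879 (VEGF/LysM replicate 3) to 18671950 (VEGF/LysM replicate 2) counts, so 1 CPM (TMM-scaled) stood for 13.5 to 19.4 reads. The tissue label fitted the markers: the 9 cortex genes summed to 44796 to 54345 CPM in VEGF/LysM and 29129 to 50550 CPM in WT, and none was at 0. The 9 chromaffin genes of the medulla summed to 5867 to 9597 CPM in VEGF/LysM and 3942 to 7125 CPM in WT. WT replicate 3 stood apart, with 11 liver and kidney genes summing to 71455 CPM, while VEGF/LysM replicate 3 had 250 CPM and the other 4 had 5.67 to 11.1 CPM. It also held the most of the 9 lymphocyte genes, 1078 CPM, against 63.9 to 133 CPM in VEGF/LysM and 148 to 272 CPM in the other WT libraries. Lyz2 stood at 132, 111 and 134 CPM in VEGF/LysM and at 186, 275 and 263 CPM in WT, a log2 fold change of -0.94 ± 0.19 (SE). Its groups did not overlap, as for 5.95% of all genes tested. It did not pass over all genes (edgeR unadjusted p = 0.00182, adjusted p = 0.999). Vegfa stood at 180, 193 and 501 CPM in VEGF/LysM and at 295, 241 and 332 CPM in WT. In whole tissue, fewer cells of a type and less RNA per cell cannot be told apart, which holds for every level below.

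**Figure D1:**
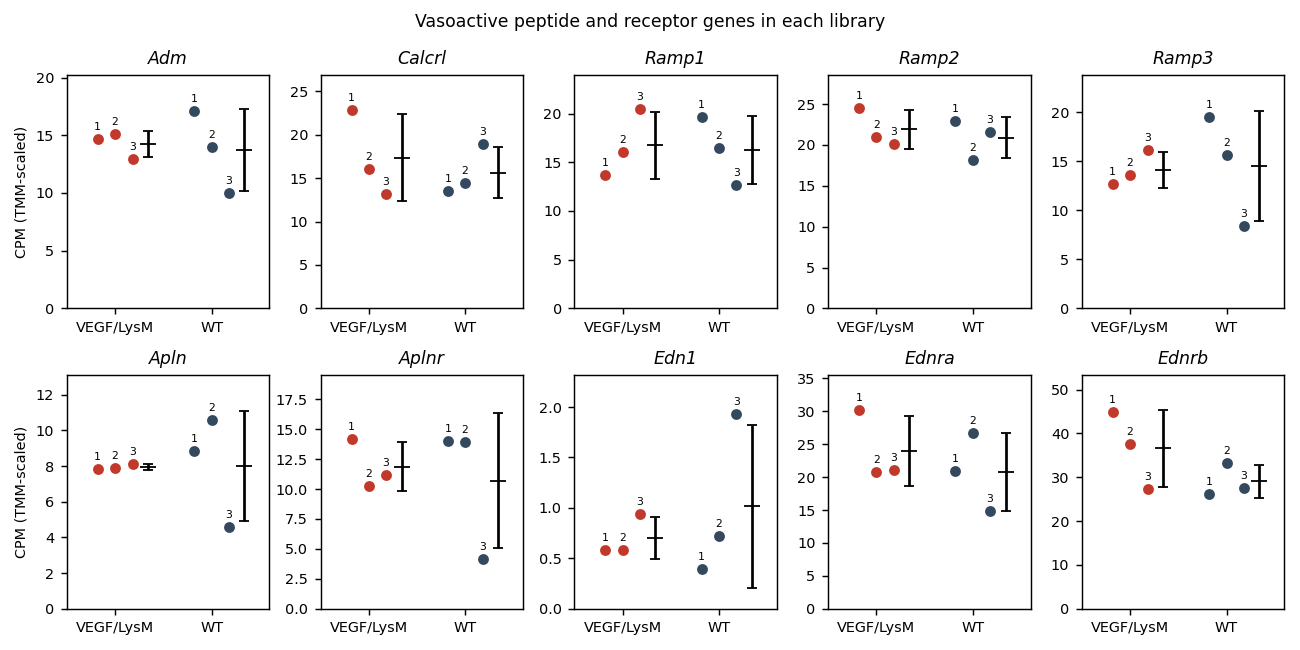
CPM after TMM scaling (linear axes from 0) of the 10 genes in each library. Points are libraries with their replicate numbers, red for VEGF/LysM and dark blue for WT, and bars give the mean and SD of 3. The groups overlap in every panel, and WT replicate 3 is the lowest point for 6 genes and the highest for Edn1.

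Adm, the ligand of Calcrl (ENSMUSG00000030790, chromosome 7, 110627661 to 110629820, plus strand, GRCm38), stood at 14.7, 15.1 and 12.9 CPM in VEGF/LysM. In WT it stood at 17.1, 13.97 and 10.03 CPM. Both the highest and the lowest library were WT, and the VEGF/LysM values lay between them. The means were 14.2 ± 1.13 CPM in VEGF/LysM and 13.7 ± 3.55 CPM in WT (SD, n = 3 each), a log2 fold change of 0.054 ± 0.24 (SE) with a 95% interval of -0.51 to 0.62. Without WT replicate 3 the fold change was -0.13, with an interval of -0.57 to 0.31, and without VEGF/LysM replicate 2 it was -0.0091.

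Apln, the ligand of Aplnr (ENSMUSG00000037010, chromosome X, 48025146 to 48034853, minus strand), was even across VEGF/LysM at 7.86, 7.89 and 8.12 CPM. WT read 8.87, 10.6 and 4.604 CPM. The VEGF/LysM values again lay inside the WT range, with replicates 1 and 2 of WT above them and replicate 3 below. The means were 7.95 ± 0.145 CPM in VEGF/LysM and 8.01 ± 3.07 CPM in WT (SD, n = 3 each), a log2 fold change of -0.014 ± 0.33 (SE) with an interval of -0.79 to 0.76. Without WT replicate 3 the fold change was -0.29, with an interval of -0.81 to 0.22, while it was 0.064 without WT replicate 1 and 0.24 without WT replicate 2.

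Edn1 (ENSMUSG00000021367, chromosome 13, 42301476 to 42307990, plus strand) was the least abundant of the 10. It had 10, 11 and 16 counts in VEGF/LysM, with exact 95% Poisson intervals of 4.8 to 18.4, 5.49 to 19.7 and 9.15 to 26. WT had 7, 14 and 26 counts, with intervals of 2.81 to 14.4, 7.65 to 23.5 and 17 to 38.1. These intervals cover counting error only. As raw counts they largely overlap, apart from those of the lowest and the highest WT library. They are not scaled for library size, and 1 CPM stood for 13.5 counts in WT replicate 3 against 17.0 to 19.4 in the other libraries. On the CPM scale WT replicate 3 therefore lies further above the others than its counts show. In CPM, Edn1 averaged 0.702 ± 0.208 in VEGF/LysM and 1.02 ± 0.808 in WT (SD, n = 3 each), a log2 fold change of -0.50 ± 0.63 (SE) with an interval of -1.99 to 0.99. Without WT replicate 3 the fold change was 0.31, with an interval of -1.06 to 1.68. At this depth a change of Edn1 to 0.251 or to 1.98 times the WT level lies at the ends of the first interval.

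Edn3, the other endothelin gene of the gland (ENSMUSG00000027524, chromosome 2, 174760619 to 174784042, plus strand), had 570, 674 and 771 counts in VEGF/LysM and 671, 642 and 288 in WT. It averaged 38.1 ± 6.40 CPM in VEGF/LysM and 30.9 ± 8.60 CPM in WT (SD, n = 3 each), a log2 fold change of 0.30 ± 0.25 (SE) that did not pass. Per kb of exon, Edn3 exceeded Edn1 by 29.6, 31.9 and 25.1 times in VEGF/LysM and by 49.9, 23.9 and 5.76 times in WT. The ratio was lowest in WT replicate 3, where Edn1 was highest and Edn3 lowest. Edn2, the remaining endothelin gene, was counted 2 times in WT replicate 2 and not at all elsewhere. A count of 0 allows up to 3 counts in a library.

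The other ligands of these receptors were at or near 0. Calca, which encodes CGRP and calcitonin, had 12, 4 and 8 counts in VEGF/LysM and 6, 4 and 1 in WT. Adm2, which encodes a close relative of adrenomedullin, was counted 2 times in WT replicate 3, and Calcb, a further CGRP gene, 1 time in that library, with 0 counts in the remaining libraries. Apela, the other ligand of Aplnr, had 1 count in VEGF/LysM replicate 2 and 2 in WT replicate 3. Iapp, the amylin gene, and Calcr, the calcitonin receptor that also pairs with Ramp proteins, had 0 counts in all 6 libraries. Of the 7 related ligand genes, only Edn3 had enough reads to be tested.

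**Figure D2:**
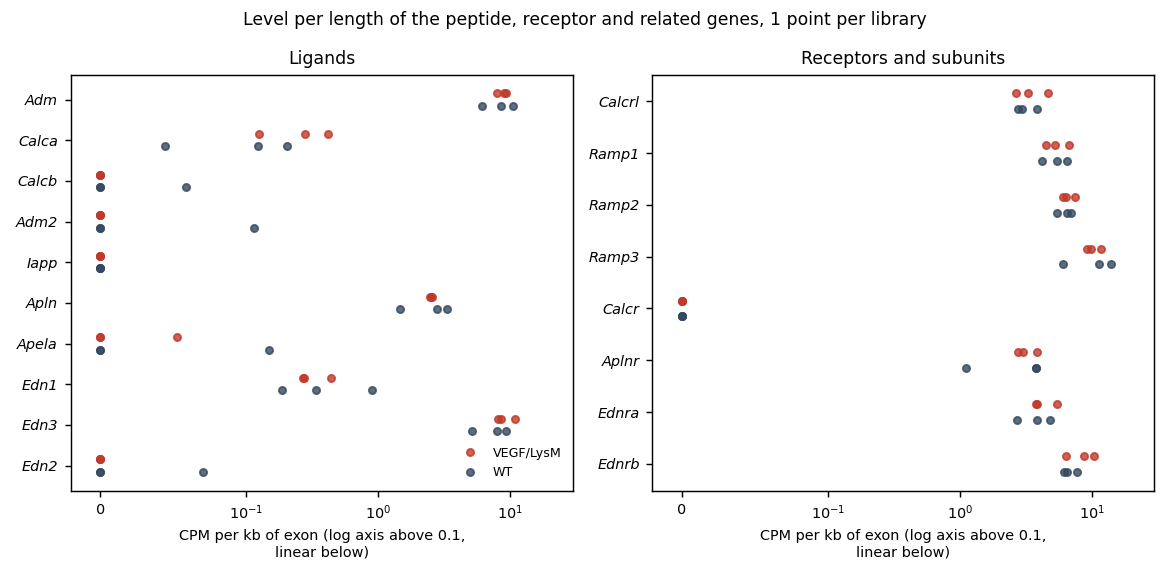
Level per kb of merged exon of ligand genes (left) and receptor genes (right), 1 point per library, red for VEGF/LysM above dark blue for WT. The axis is logarithmic above 0.1 and linear below. Adm, Apln and Edn3 lie to the right of Edn1, nearest in WT replicate 3, where Apln is at 1.46 and Edn1 at 0.903. The other ligands and Calcr lie at or near 0. The remaining receptor genes lie between 1.12 (Aplnr in WT replicate 3) and 14.1 (Ramp3 in WT replicate 1).

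Calcrl (ENSMUSG00000059588, chromosome 2, 84330626 to 84425411, minus strand) stood at 22.9, 16.0 and 13.1 CPM in VEGF/LysM and at 13.5, 14.4 and 18.9 CPM in WT. VEGF/LysM replicate 1 was the highest library and VEGF/LysM replicate 3 the lowest. The means were 17.3 ± 5.01 CPM in VEGF/LysM and 15.6 ± 2.92 CPM in WT (SD, n = 3 each), a log2 fold change of 0.15 ± 0.26 (SE) with an interval of -0.47 to 0.77. Without WT replicate 3 the fold change was 0.31, with an interval of -0.26 to 0.88, and without VEGF/LysM replicate 1 it was -0.12. WT replicate 3 was the second highest library for Calcrl but the lowest for Adm.

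Ramp1, the partner for CGRP (ENSMUSG00000034353, chromosome 1, 91179822 to 91225196, plus strand), stood at 13.7, 16.0 and 20.5 CPM in VEGF/LysM and at 19.7, 16.5 and 12.7 CPM in WT. The groups spanned nearly the same range, and the log2 fold change was 0.037 ± 0.24 (SE) with an interval of -0.54 to 0.61. The Ramp1 direction turned without WT replicate 3 (-0.12) and without VEGF/LysM replicate 3 (-0.13). Ramp2, whose loss in mice is known to harm vessels (ENSMUSG00000001240, chromosome 11, 101246028 to 101259546, plus strand), was the steadiest of the 10. It stood at 24.6, 21.0 and 20.1 CPM in VEGF/LysM and at 23.0, 18.1 and 21.6 CPM in WT, with its highest library 1.35 times its lowest. Its log2 fold change was 0.068 ± 0.17 (SE) with an interval of -0.34 to 0.48, and it was -0.041 without VEGF/LysM replicate 1 and -0.023 without WT replicate 2. Ramp2 shares 1103 of its exon bases (33.4%) with Vps25 on the same strand, so its counts are uncertain where the authors' counting could split reads between them. Ramp3 (ENSMUSG00000041046, chromosome 11, 6658521 to 6677475, plus strand) stood at 12.7, 13.6 and 16.2 CPM in VEGF/LysM and at 19.5, 15.6 and 8.39 CPM in WT. WT held both its highest and its lowest library, and its log2 fold change was -0.039 ± 0.32 (SE) with an interval of -0.80 to 0.72. The Ramp3 fold change was -0.32 without WT replicate 3 and 0.23 without WT replicate 1, and it was also above 0 without VEGF/LysM replicate 1 (0.015) or WT replicate 2 (0.017). An antisense pseudogene, Gm11978, overlaps 7.32% of the Ramp3 exon bases, and reads of the strands cannot be told apart in these unstranded libraries.

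Per kb of exon, Ramp3 took the largest mean share of the Ramp transcripts in both groups, 45.6 ± 2.13% in VEGF/LysM and 46.1 ± 8.59% in WT (SD, n = 3 each). Ramp2 took 29.9 ± 5.21% in VEGF/LysM and 29.6 ± 8.06% in WT. Ramp1 took 24.5 ± 3.09% in VEGF/LysM and 24.4 ± 0.703% in WT. The order turns with the length used: by the longest annotated transcript, a choice added after the values were seen, Ramp2 took 45.6 ± 6.28% in VEGF/LysM and 45.0 ± 8.997% in WT. Ramp3 then took 32.4 ± 2.72% in VEGF/LysM and 33.1 ± 8.03% in WT. Calcrl was below the Ramp sum in each library, at 0.161 ± 0.0567 of it in VEGF/LysM and 0.154 ± 0.0679 in WT. By merged exons, Ramp2 took 38.9% and Ramp3 36.1% in WT replicate 3. A change of these shares was not tested.

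Aplnr (ENSMUSG00000044338, chromosome 2, 85136225 to 85139923, plus strand) stood at 14.2, 10.3 and 11.2 CPM in VEGF/LysM and at 14.05, 13.9 and 4.16 CPM in WT. A single library, WT replicate 3, lay far below the other 5. The means were 11.9 ± 2.06 CPM in VEGF/LysM and 10.7 ± 5.67 CPM in WT (SD, n = 3 each), a log2 fold change of 0.15 ± 0.45 (SE) with an interval of -0.92 to 1.21. Without WT replicate 3 the direction turned, to -0.24 with an interval of -0.73 to 0.25, and without VEGF/LysM replicate 1 it was -0.021.

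Ednra (ENSMUSG00000031616, chromosome 8, 77663031 to 77724464, minus strand) stood at 30.1, 20.8 and 21.0 CPM in VEGF/LysM and at 21.0, 26.7 and 14.8 CPM in WT. VEGF/LysM replicate 1 was the highest library and WT replicate 3 the lowest, and the log2 fold change was 0.20 ± 0.27 (SE) with an interval of -0.43 to 0.84. Without WT replicate 3 it was 0.0025, and without VEGF/LysM replicate 1 it was -0.014. Ednrb (ENSMUSG00000022122, chromosome 14, 103814625 to 103844402, minus strand) stood at 44.8, 37.6 and 27.2 CPM in VEGF/LysM and at 26.2, 33.3 and 27.6 CPM in WT. Of the VEGF/LysM libraries, replicates 1 and 2 lay above all WT libraries, and VEGF/LysM replicate 3 lay within them. The means were 36.6 ± 8.82 CPM in VEGF/LysM and 29.0 ± 3.77 CPM in WT (SD, n = 3 each), a log2 fold change of 0.33 ± 0.22 (SE) with an interval of -0.18 to 0.85. This did not pass (edgeR unadjusted p = 0.170, adjusted p = 0.999), and as a ratio the interval runs from 0.882 to 1.799. Without VEGF/LysM replicate 3 the fold change was 0.51 (edgeR unadjusted p = 0.0386, adjusted p = 0.999). Without both libraries that held liver transcripts it was 0.48 with an interval of 0.041 to 0.91 (edgeR unadjusted p = 0.0359, adjusted p = 1). The fit without VEGF/LysM replicate 3 had 209 of 16622 genes at an edgeR unadjusted p under 0.05. The fit without both libraries that held liver transcripts had 378 of 16337. Ednrb was above 0 in all 16 other fits run, and each of the other 9 genes changed direction in at least 1 of them. Those fits reuse the same 6 libraries, so their shared direction is not separate evidence. The share of all genes that kept their direction was not counted. Per kb of exon, Ednrb exceeded Ednra by 1.97 ± 0.335 times in VEGF/LysM and by 1.87 ± 0.462 times in WT (SD, n = 3 each).

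**Figure D3:**
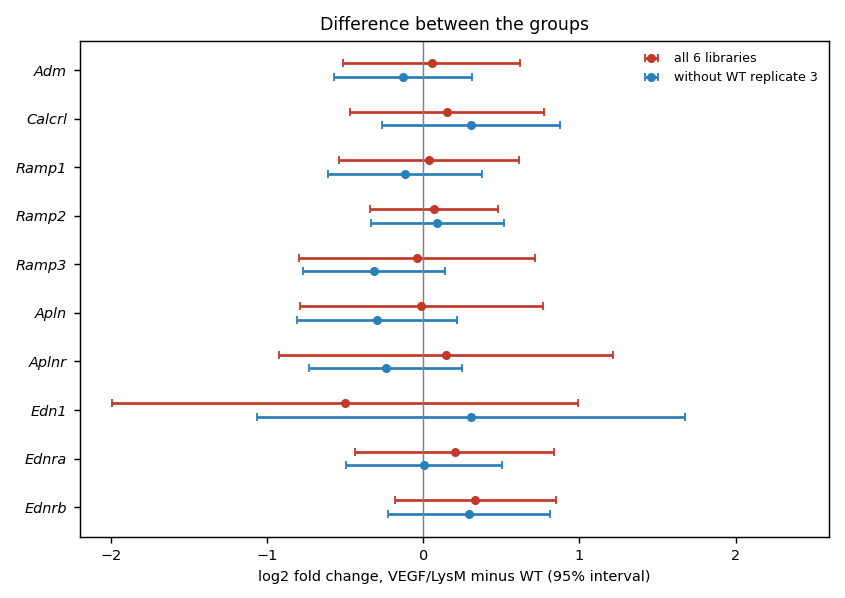
Log2 fold change, VEGF/LysM minus WT, of the 10 genes with 95% intervals derived from edgeR's quasi-likelihood test. Red is the fit of all 6 libraries and blue the fit without WT replicate 3. Each interval crosses 0 in both fits, and Adm, Ramp1, Aplnr and Edn1 lie on the other side of 0 in the fit without that library.

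In order of the median level per kb of exon over the 6 libraries, Ramp3 (10.6 CPM per kb) came first. Adm (8.84), Ednrb (7.14), Ramp2 (6.46), Ramp1 (5.38), Ednra (3.83), Aplnr (3.39), Calcrl (3.12), Apln (2.54) and Edn1 (0.306) followed in CPM per kb. Neighbours in that order overlapped in their ranges, apart from Apln, which lay above Edn1 in 6 of 6 libraries. Measured by the longest annotated transcript in place of merged exons, Ramp2 came first at 14.4 CPM per kb. Ackr3, a scavenging receptor that binds adrenomedullin, was above each of the 10 at a median of 44.9 CPM per kb, and Gpr182, an endothelial receptor once thought to bind it, stood at 4.42 CPM per kb.

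WT replicate 3 was the lowest library for 6 of the 10 genes and the highest for 1. Among all genes tested it was the lowest for 29.7% and the highest for 28.4%. VEGF/LysM replicate 1 was the highest for 5 of the 10, and for 15.5% of all genes tested. Against the median of the 6 libraries, WT replicate 3 lay at -1.58 (Aplnr), -0.80 (Apln), -0.79 (Ramp3), -0.51 (Adm), -0.51 (Ednra) and -0.36 (Ramp1) in log2 units, and at 1.57 for Edn1. On the same scale its cortex sum lay at -0.70, its chromaffin sum at -0.60, its mural cell sum at 0.41, its hypoxia-responsive sum at 0.50 and its endothelial sum at -0.076. The part of its liver, kidney and lymphocyte transcripts in these values was not tested.

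**Figure D4:**
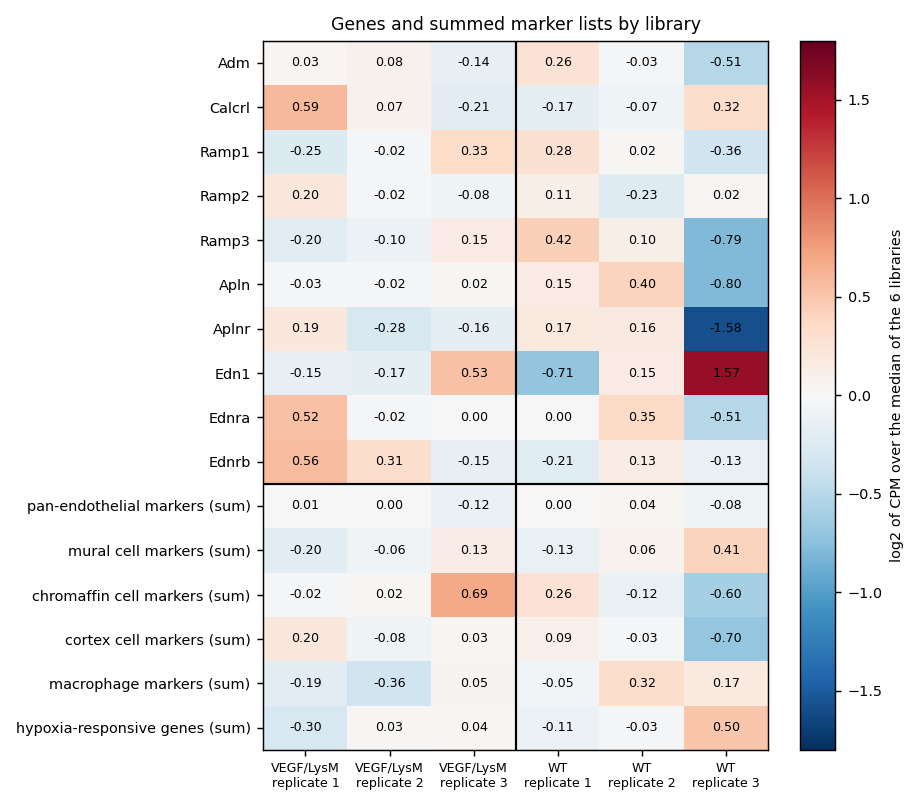
Log2 of CPM over the median of the 6 libraries for the 10 genes (upper rows) and for the summed CPM of 6 marker lists (lower rows), with VEGF/LysM libraries left and WT libraries right. Aplnr at -1.58 and Edn1 at 1.57, both in WT replicate 3, are the deepest blue and red cells, while the endothelial sum stays within -0.12 to 0.042.

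The measured order of the libraries by Adm was the reverse of their order by Edn1, whose counts are too few to fix that order. WT replicate 1 was the highest for Adm and the lowest for Edn1, and WT replicate 3 the lowest for Adm and the highest for Edn1. Over the 6 libraries the Pearson r of log2 CPM was -0.997, the largest in size of the 45 pairs among the 10 genes, and it is given as a description of these libraries with no test. Of 12156 genes with a mean of at least 5 CPM, 637 had an r below -0.9 with Adm. How many reached -0.997 was not counted. The r of Adm and Edn1 was -0.99 over the 5 libraries other than WT replicate 3. Edn1 had 10 counts in VEGF/LysM replicate 1 and 11 in replicate 2, so neighbours in its order lie within counting error. The pair Apln and Aplnr had an r of 0.934, and of 0.497 without WT replicate 3. Over all 6 libraries, 723 of the 12156 genes had an r over 0.9 with Adm, 421 with Apln, 803 with Aplnr and 693 with Edn1. The 2 of highest r are named for each, so they are picked from many and mark no particular link. The genes most like Adm were Mrps11, a mitochondrial ribosome protein (r = 0.9985), and Calm2, a calmodulin (r = 0.9959). Those most like Apln were Cx3cl1, a chemokine (r = 0.9957), and Cacna1h, a calcium channel subunit (r = 0.9925). Those most like Aplnr were Hsd3b1, a steroid enzyme of the cortex (r = 0.999), and Rai2 (r = 0.9985), and those most like Edn1 were Ifi203, an interferon-inducible gene (r = 0.9963), and Ncoa3, a nuclear receptor coactivator (r = 0.9956). Hsd3b1, like Aplnr, had its lowest level in WT replicate 3 (4365 CPM), and its other libraries ran from 9268 to 12002 CPM. Without WT replicate 3 the r of Aplnr and Hsd3b1 was 0.989. Across all the pairs with these most alike genes, r then ran from 0.962 (Apln and Cacna1h) to 0.995 (Adm and Mrps11).

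Adm and Edn1 are both known to respond to low oxygen through the factor HIF, so the 250 bases before each start are shown as background to the hypoxia-responsive genes below. The HIF core motif was searched as ACGTG and as GCGTG on both strands, and matches are in capitals. The sequences are from RefSeq on GRCm38.p6, read on the gene's plus strand, at chr7:110627407-110627656 for Adm and chr13:42301226-42301475 for Edn1.
Adm: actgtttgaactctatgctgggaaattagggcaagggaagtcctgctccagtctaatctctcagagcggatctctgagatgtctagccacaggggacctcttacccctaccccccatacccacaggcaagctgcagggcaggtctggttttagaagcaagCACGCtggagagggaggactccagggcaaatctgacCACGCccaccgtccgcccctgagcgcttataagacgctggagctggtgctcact
Edn1: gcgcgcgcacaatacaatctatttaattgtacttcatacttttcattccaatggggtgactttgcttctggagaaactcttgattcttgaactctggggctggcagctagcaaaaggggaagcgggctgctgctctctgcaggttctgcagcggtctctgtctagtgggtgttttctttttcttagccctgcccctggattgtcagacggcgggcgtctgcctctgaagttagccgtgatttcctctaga
The Adm window held GCGTG at 90 and at 54 bases before the start, each on the minus strand and so read as CACGC above, and the Edn1 window held no match. Of the 8 genes of the 10 with a promoter entry, Ramp3 (65 and 219 bases before the start) and Ednrb (99 bases before it) also held GCGTG, and none held ACGTG. Among all 32851 promoter windows of the same length, 28.2% held GCGTG and 16.6% held ACGTG, so a match is a description and not a site. The hypoxia-responsive genes summed to 1488 to 1874 CPM in VEGF/LysM and 1696 to 2578 CPM in WT, highest in WT replicate 3. Of 14 tested, 4 lay above 0 and 10 below 0 (median -0.17 log2), and 0 passed the test. Bnip3, a mitophagy gene, had 0.31 ± 0.16 and Ndrg1, a stress-response gene, -0.36 ± 0.18 (log2 fold change, SE). The groups did not overlap for 3 of the 14, Bnip3 and Ndrg1 among them, against 5.95% of all genes tested. The antisense gene Gm45507 overlaps 22.3% of the Bnip3 exon bases, and unstranded reads cannot tell them apart.

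Genes that make, break down or relay these peptides did not pass either. Of 10 tested genes of peptide processing and breakdown, 6 lay above 0 and 4 below, with a median log2 fold change of 0.093. Ece1, the enzyme that cuts endothelins to their active form, stood at 242, 247 and 198 CPM in VEGF/LysM and at 185, 205 and 270 CPM in WT. Pam, which amidates adrenomedullin, stood at 423, 352 and 337 CPM in VEGF/LysM and at 375, 404 and 207 CPM in WT. Neither separated the groups. By the smallest p in their list, Lnpep, a peptidase, had 0.37 ± 0.19 and Pcsk7, a proprotein convertase, -0.17 ± 0.16 (log2 fold change, SE).

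Of 16 effectors of nitric oxide and cyclic nucleotides, 12 lay above 0 and 4 below, and 0 passed. Their median log2 fold change was 0.11. Nos3, the endothelial nitric oxide synthase, stood at 15.01, 18.5 and 16.7 CPM in VEGF/LysM and at 14.6, 17.8 and 16.3 CPM in WT. On the opposite strand, Gm15587 overlaps 25.2% and Atg9b 7.12% of the Nos3 exon bases, and unstranded reads cannot tell them apart. Gnas, the G protein subunit through which Calcrl raises cyclic AMP, stood at 216, 215 and 222 CPM in VEGF/LysM and at 183, 189 and 180 CPM in WT. Its groups did not overlap, with a log2 fold change of 0.24 ± 0.12 (SE), but it did not pass (edgeR unadjusted p = 0.0891, adjusted p = 0.999). Opposite-strand genes also overlap the Gnas exon bases, Gm20721 by 13.1% and Nespas by 8.83%. Gnaq, the subunit that couples endothelin receptors to calcium release, had 0.24 ± 0.14 (log2 fold change, SE). Of 10 tested genes of other vasoactive peptides, 6 lay above 0 and 4 below, and their leading genes by p were the vasopressin receptor Avpr1a (-3.39 ± 1.30) and the VIP receptor Vipr1 (-2.68 ± 1.24). Avpr1a stood at 28.8 CPM and Vipr1 at 29.2 CPM in WT replicate 3. In the other libraries of both groups, Avpr1a ran from 0.471 to 1.91 CPM and Vipr1 from 1.21 to 2.53 CPM. Both fold changes thus rest on WT replicate 3, the library rich in liver transcripts.

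Markers of the cells that carry these receptors did not pass either. The 15 pan-endothelial markers, none at 0, summed to 810 to 885 CPM in VEGF/LysM and 834 to 905 CPM in WT, and 5 lay above 0 and 10 below (median -0.058 log2). Tek, the angiopoietin receptor, had 0.25 ± 0.19 and Mmrn2, an endothelial matrix protein, 0.23 ± 0.18 (log2 fold change, SE). Of 10 tip cell genes, among which Apln is commonly counted, 5 lay above 0 and 5 below. Cxcr4, a chemokine receptor of that list, stood at 17.8 to 23.1 CPM in VEGF/LysM and at 33.7 to 46.2 CPM in WT (-0.96 ± 0.19 log2 fold change, SE). Its groups did not overlap, as for 5.95% of all genes tested. It did not pass over all genes (edgeR unadjusted p = 0.00163, adjusted p = 0.999). Angpt2, also of that list, had -0.36 ± 0.32. The 12 mural cell markers summed to 302 to 380 CPM in VEGF/LysM and 315 to 459 CPM in WT, and 7 lay above 0 and 5 below (median 0.020 log2). The genes of smallest p among them, the smooth muscle genes Acta2 (-1.12 ± 0.37) and Myh11 (-1.08 ± 0.46), did not pass. The groups did not overlap for Acta2, which held for 5.95% of all genes tested.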

How the data were processed

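Whole-number counts per gene and library were deposited by the authors, not normalised, as the values show. The build mm10 and the tools kallisto and DESeq2 1.36.0 are named, per the submitters' processing notes, and the sources used here do not give the step that made whole counts. Per the labels' protocols, libraries followed Smart-seq2, which does not mark strand. Columns were matched to samples by title, and 54409 of 54532 identifiers matched a symbol.

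edgeR 4.0.16 under R 4.3.3 fitted group alone by quasi-likelihood after filterByExpr (minimum count 10, total 15) and TMM scaling (factors 1.02 to 1.05, and 0.84 in WT replicate 3). The Benjamini-Hochberg adjustment ran over all 16300 genes (threshold 0.05). The biological coefficient of variation was 0.365. With totals of 16476879 to 18671950 counts per library, Edn1 near 1 CPM carries the most counting error of the 10. An exact permutation of 3 against 3 cannot go below p = 0.1, so single values were not tested alone. The fit was tested on simulated data with less scatter than these libraries and with larger changes than those of the 10 genes. That test therefore does not show whether changes of their size would be found here. Gene models were GENCODE M21 (GRCm38, the assembly mm10 names), and promoters were from RefSeq.

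The 10 genes and the companion lists were chosen with earlier results of these data known. The genes named were the 10, Vegfa, Lyz2, in each list the 2 of smallest p, and for Adm, Apln, Edn1 and Aplnr the 2 of highest r. Ece1, Pam, Nos3, the untested related ligands and Calcr were named after their values were seen. In the lists not described by gene in the results, the rule named Prox1 (0.49) and Reln (-1.56) for lymphatic endothelium, Gli1 (0.42) and Col1a1 (-0.50) for fibroblasts and capsule, Pnmt (0.67) and Slc18a1 (0.32) for chromaffin cells, Cyp11b1 (0.44) and Star (0.27) for cortex, Cdh19 (0.39) for Schwann cells, Fabp4 (0.33) and Lep (0.73) for adipocytes, Ahsg (-6.94) and Apoa2 (-8.10) for liver and kidney, Ighm (-2.18) for lymphocytes, and Adgre1 (0.31) beside Lyz2 for macrophages, as log2 fold changes of which none passed. Of the genes the rule named, 2 are not reported here. Alternatives were other scalings (DESeq2 size factors, upper quartile, library size), filters, a replicate block, each library left out, both libraries with liver transcripts left out, DESeq2 1.42.0, limma-voom (limma 3.58.1) with and without sample weights, and a threshold of 0.1.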

Additional observations from a re-analysis of the deposited data

How the results depend on the processing

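The count of called genes was 0 in each alternative run except without WT replicate 3, where it was 1 (Sumo2, edgeR adjusted p = 0.0368), so leaving out a library gave 0 to 1. None of the 10 genes was called in any alternative. Leaving out 1 library moved the log2 fold change over -0.13 to 0.25 for Adm, -0.12 to 0.32 for Calcrl, -0.13 to 0.20 for Ramp1, -0.041 to 0.14 for Ramp2, -0.32 to 0.23 for Ramp3, -0.29 to 0.24 for Apln, -0.24 to 0.39 for Aplnr, -0.89 to 0.31 for Edn1, -0.014 to 0.42 for Ednra and 0.14 to 0.51 for Ednrb. Without both libraries with liver transcripts, the direction turned for Adm (-0.057), Ramp1 (-0.28), Aplnr (-0.19) and Edn1 (0.054), and Calcrl moved to 0.48 (interval -0.036 to 1.001), Ramp3 to -0.41 (-0.89 to 0.059) and Apln to -0.30 (-0.85 to 0.25). The direction turned with limma-voom and sample weights for Ramp1 (-0.12) and Aplnr (-0.086), with limma-voom (0.029) and library size alone (0.016) for Apln, and with the replicate block for Ramp3 (0.029) and Apln (0.062). The cause was not tested. Same-numbered libraries correlated in their deviations at 0.064, -0.014 and 0.25. Libraries of different numbers were not compared, so these values cannot tell whether the numbers pair the samples. The fit with the replicate block called 0 genes (270 at an unadjusted p under 0.05, against 459). Without any filter 1098 of 28809 genes had such a p. Scaling by library size alone moved the median of all genes to 0.069. Under the stricter filter (1 CPM in 3 libraries) Edn1 was not tested. Depth limits Edn1, which had 7 to 26 counts per library.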
